A study of Danio rerio with 8 samples.

Results

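The translation initiation factors were taken from RNA sequencing of the injured zebrafish heart as the gene rows whose symbol, with case ignored, begins with eif and a digit, leaving out the 4 eIF2 kinases. The rule uses no measured value and found 62 of 32520 gene rows, of which 60 had enough counts to be tested. Levels were compared between cardiac ventricles of adult cox7a1-/- fish, homozygous mutants of a subunit of mitochondrial cytochrome c oxidase, and of their wildtype siblings. All fish of both genotypes had been cryoinjured, which kills a region of the ventricle by freezing, and were sampled 7 days later, so no uninjured heart entered the comparison. Each genotype had 4 pools and each pool held 5 ventricles, so the spread between pools was measured and that between single fish was not. Symbols are given in the case of the gene table, and where rows share a symbol the Ensembl gene ID is added.

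Translation of most messenger RNAs starts when the cap-binding protein eIF4E, the scaffold eIF4G and the helicase eIF4A join the capped end of the message. The scaffold then recruits the small ribosomal subunit, which carries the many-subunit complex eIF3, the factors eIF1, eIF1A and eIF5, and eIF2 with the initiator tRNA. Small eIF4E-binding proteins compete with eIF4G for eIF4E, and phosphorylation of eIF2 limits its recycling by the exchange factor eIF2B, so that these steps set how much protein a cell starts to make. In the heart this machinery is known for its part in growth of the muscle and in its responses to stress.

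Total counts were 41556101 to 69057989 in mutant pools and 49788133 to 53597730 in wildtype pools, and initiation factors took between 0.68% and 0.763% of the counts of a pool. Levels are CPM, the counts of a gene relative to the size of its library after scaling by the TMM method. The targeted gene was below wildtype in each mutant pool, with 59.5, 113, 88.5 and 194 CPM in mutant replicates 1 to 4 against 210, 278, 286 and 211 CPM in wildtype replicates 1 to 4, and the log2 fold change of -1.11 ± 0.295 (SE) did not pass with edgeR (adjusted p = 0.0776; DESeq2 adjusted p = 0.00345). Defining markers of heart muscle were abundant, with MYL7 at a mean of 11141 CPM in mutants and 11717 CPM in wildtype. A list of 3 liver genes summed to at most 0.11 CPM in mutant and 0.099 CPM in wildtype pools. The summed levels of the marker lists for heart muscle (6 gene rows), leukocytes (4), fibroblasts and epicardium (5), endothelium (7) and erythrocytes (4) overlapped between the genotypes. Their ranges were 25160 to 38410 CPM in mutant against 25350 to 30170 CPM in wildtype pools for heart muscle, 149 to 211 against 148 to 235 for leukocytes, 1722 to 2594 against 1158 to 2312 for fibroblasts and epicardium, 954 to 1277 against 1041 to 1335 for endothelium, and 608 to 1592 against 543 to 916 for erythrocytes. Of the heart muscle rows, 3 had positive and 3 negative log2 fold changes, and 1, actc1a, was higher in every mutant pool than in every wildtype pool. Its means were 11106 CPM in mutants and 8317 CPM in wildtype (log2 fold change 0.42 ± 0.154, SE; edgeR adjusted p = 0.187). In 1 erythrocyte gene row no pool had a count, and the 3 tested rows (hbaa1, alas2 and SLC4A1) all had positive log2 fold changes, of 0.49 to 0.96 with a median of 0.57. Their genotypes overlapped and none was called by edgeR (SLC4A1 had an unadjusted p under 0.05), and the part of these cells in the results on initiation factors was not tested. A list of 4 skeletal muscle rows summed to 3999 to 6976 CPM in mutant and 3943 to 4523 CPM in wildtype pools. Nearly all of that sum was the creatine kinase gene ckma, with means of 5253 CPM in mutants and 4255 CPM in wildtype, while myhz2 and the TNNT3 rows averaged at most 9.95 CPM in mutants and 3.99 CPM in wildtype. In RNA from whole ventricles, fewer cells of a type and less RNA per cell cannot be told apart.

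Among the initiation factors, the genes that rose in mutants were scaffolds of the eIF4G family and a cap-binding protein, while the rows of eIF1, eIF2, eIF2B and eIF3 gave no edgeR call. Of the 60 tested initiation factors, 4 were higher in mutants by edgeR's quasi-likelihood test at an adjusted p under 0.05, and 0 were lower. That is 6.67% of the tested members, against 2.02% of all 17949 tested genes, of which 1.14% were higher and 0.88% lower. The 4 genes were EIF4G1, one of the paired rows each of EIF4G2 (ENSDARG00000020377) and EIF4G3 (ENSDARG00000077215), and eif4e1c. At an unadjusted p under 0.05 there were 10 higher and 3 lower initiation factors, or 21.7% against 18% of all tested genes (9.42% higher and 8.6% lower). DESeq2 called 7 higher and 1 lower, or 13.3% of the members against 6.1% of all tested genes. The limma-voom calls were 4 and 0, or 6.67% against 2.06%. The genotypes did not overlap in 12 higher and 2 lower members, which is 23.3% of them, against 11.7% of all tested genes (6.27% higher and 5.48% lower). The log2 fold change, mutant over wildtype, was above 0 in 39 of the 60 members, or 65%, and in 50.4% of all tested genes. Scaled by library totals alone it was above 0 in 32 members. Its median was 0.05 for the initiation factors and 0.00 for all genes.

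**Figure D1:**
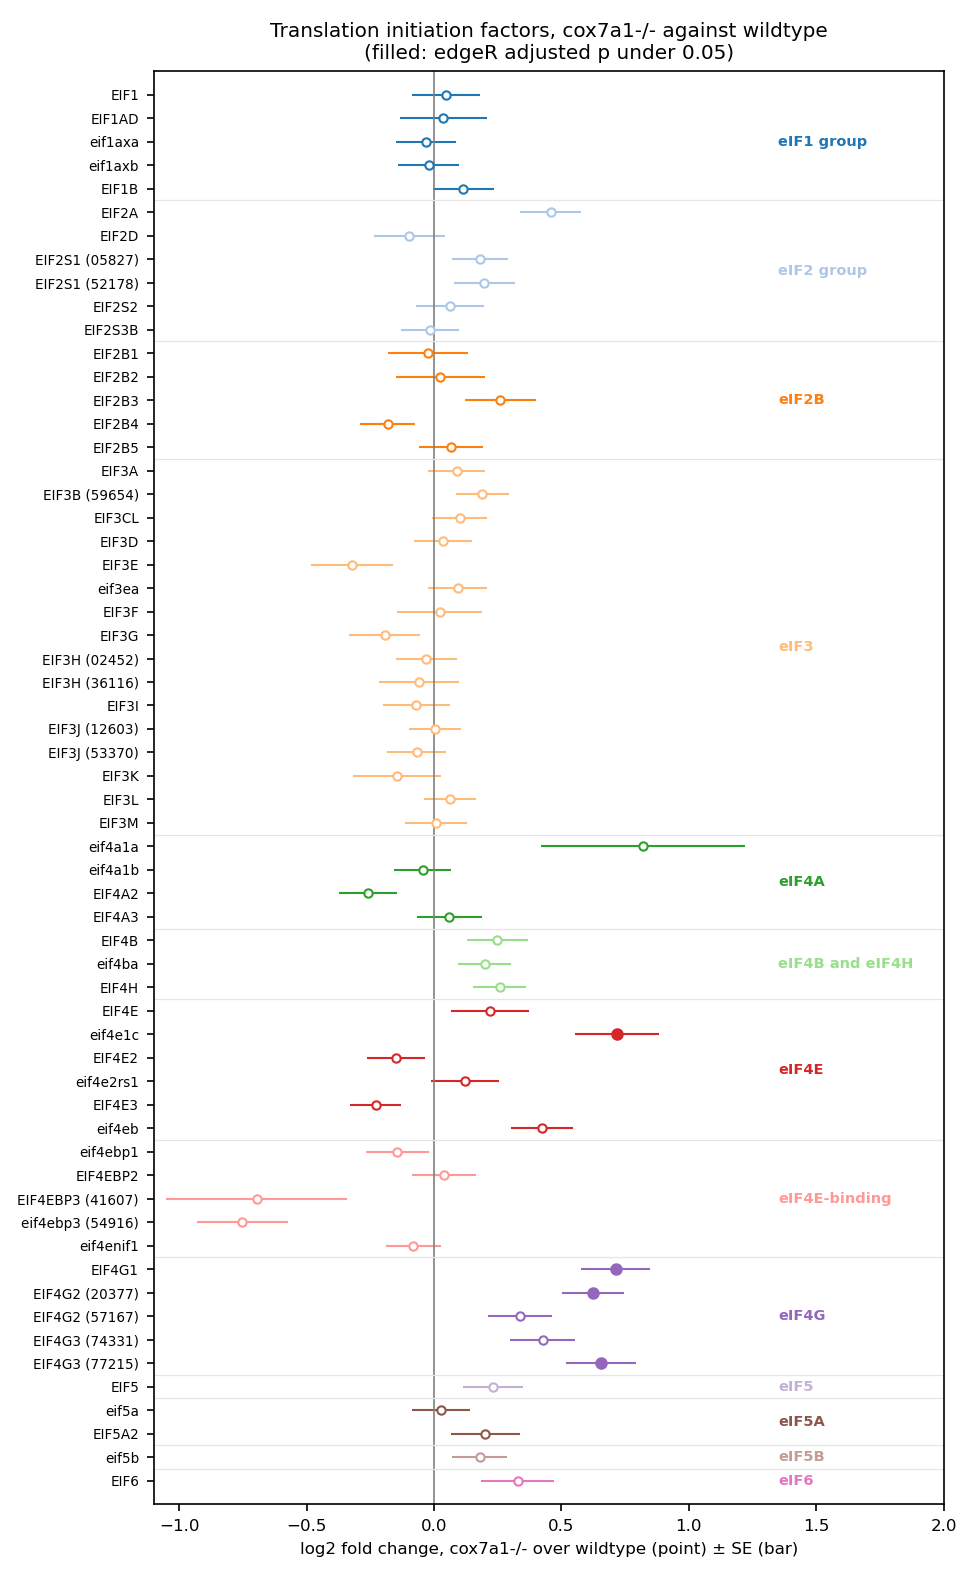
Log2 fold change of each of the 60 tested initiation factors, cox7a1-/- over wildtype (x axis; points, with bars of 1 SE), grouped by factor complex (y axis); filled points passed edgeR's adjusted p of 0.05. All 5 eIF4G rows lie to the right of 0, between 0.34 and 0.71, and the 16 eIF3 rows lie between -0.32 and 0.19.

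All 5 rows of the scaffold family eIF4G stood higher in every mutant pool than in every wildtype pool, and 3 of the 5 rose by the test. EIF4G1 (ENSDARG00000006200; GRCz11 chromosome 2, 16798652 to 16842699, plus strand), the scaffold that joins eIF4E, eIF4A and the ribosome, had 185, 144, 201 and 144 CPM in mutant replicates 1 to 4, against 101, 107, 97.1 and 106 CPM in wildtype replicates 1 to 4. Mutant replicates 1 and 3 were the highest, and the lowest mutant pool was above all wildtype pools, which lay close together. Its mean was 168 ± 29.1 CPM in mutants and 103 ± 4.49 CPM in wildtype (SD, n = 4 each), a log2 fold change of 0.71 ± 0.135 and a ratio of 1.64 (SE; edgeR adjusted p = 0.026). These values rest on 4873 to 9145 counts per pool.

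EIF4G2 belongs to a branch of the family that lacks the eIF4E-binding part and is known to serve initiation that does not use eIF4E, and zebrafish have a pair of rows for it. The row ENSDARG00000020377 (chromosome 7, 66634167 to 66654025, plus strand) had 177, 171, 181 and 143 CPM in mutant replicates, against 106, 104, 101 and 125 CPM in wildtype replicates. The genotypes did not overlap, mutant replicate 4 was the lowest mutant pool, and wildtype replicate 4 was the highest wildtype pool. The means differed 1.54-fold, a log2 fold change of 0.62 ± 0.122 that passed with edgeR (adjusted p = 0.0291). The second row, ENSDARG00000057167 (chromosome 18, 16715864 to 16726206, plus strand), is the most abundant eIF4G row by CPM and per length, with 241, 234, 283 and 243 CPM in mutant and 170, 193, 206 and 223 CPM in wildtype replicates. Here the lowest mutant and the highest wildtype pool were close, and the log2 fold change of 0.34 ± 0.124 did not pass (edgeR adjusted p = 0.185). The difference between the paired rows was not tested.

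EIF4G3, a scaffold close to EIF4G1 in function, also has a pair of rows. The row ENSDARG00000077215 (chromosome 11, 27828212 to 27917730, minus strand) had 43.3, 39.0, 39.3 and 32.2 CPM in mutant replicates, against 26.2, 21.1, 21.5 and 28.8 CPM in wildtype replicates. The lowest mutant pool was again replicate 4 and the highest wildtype pool replicate 4, without overlap. The means differed 1.57-fold, a log2 fold change of 0.65 ± 0.137 that passed with edgeR (adjusted p = 0.0378). In the row ENSDARG00000074331 (chromosome 23, 21978584 to 22060520, plus strand) the levels were 70.0, 57.1, 76.4 and 61.6 CPM in mutant and 45.8, 56.4, 43.7 and 51.3 CPM in wildtype replicates. These pools came within 1 CPM of each other without overlap, and the log2 fold change of 0.43 ± 0.128 did not pass with edgeR (adjusted p = 0.113), while DESeq2 called it (adjusted p = 0.0492).

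Summed over the 5 rows, eIF4G transcripts stood at 716, 645, 781 and 624 CPM in mutant and 449, 481, 470 and 534 CPM in wildtype replicates, with means of 691 ± 71.5 and 483 ± 36.2 CPM (SD, n = 4 each). The ratio of the means was 1.43. The same ratio lay between 0.88 and 1.26 for the 12 other factor groups, and the sums are given as a description. Reads that map to several places were not counted, so shared sequence within a paralog pair lowers the level of both rows.

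**Figure D2:**
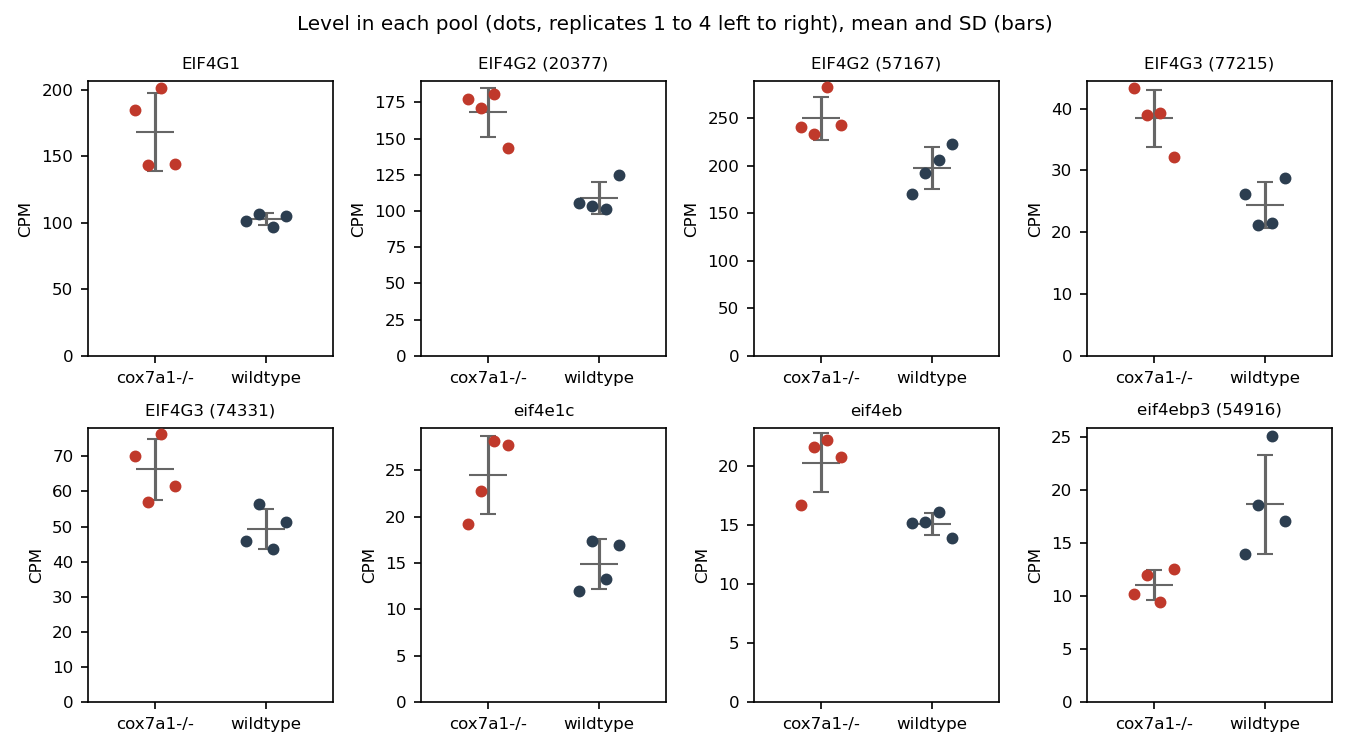
CPM in each pool (y axis, from 0) for the 5 eIF4G rows, the cap-binding genes eif4e1c and eif4eb and the binding protein eif4ebp3; red dots are cox7a1-/- replicates 1 to 4 and dark dots wildtype replicates 1 to 4, left to right, with the mean and SD of 4 pools as bars. The 8 rows were chosen with their values known. Mutant and wildtype dots do not overlap in any of these panels, with eif4ebp3 the panel in which mutant pools are lower. The genotypes did not overlap in 23.3% of the tested members, against 11.7% of all tested genes.

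Within the cap-binding eIF4E family, eif4e1c rose in mutants and the other 5 tested rows did not pass. The gene eif4e1c (ENSDARG00000012274; chromosome 13, 18311410 to 18324469, plus strand) encodes a cap-binding protein of a family kept in aquatic vertebrates, which has been linked in zebrafish to growth and to heart regeneration. It had 19.2, 22.8, 28.1 and 27.7 CPM in mutant replicates, against 11.997, 17.4, 13.3 and 16.9 CPM in wildtype replicates. The genotypes did not overlap, mutant replicate 1 was the lowest mutant pool, and wildtype replicates 2 and 4 were the highest wildtype pools. The means differed 1.64-fold, a log2 fold change of 0.72 ± 0.164, on 666 to 1715 counts per pool. The edgeR adjusted p of 0.0495 lies just under the threshold.

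The paralog eif4eb (ENSDARG00000013274), which was chosen after its values were seen, had 16.6, 21.5, 22.1 and 20.7 CPM in mutant and 15.1, 15.2, 16.1 and 13.9 CPM in wildtype replicates. Its groups did not overlap either, but mutant replicate 1 came close to wildtype, and the log2 fold change of 0.42 ± 0.122 did not pass (edgeR adjusted p = 0.0999; DESeq2 adjusted p = 0.0475). EIF4E, the widely used cap-binding gene, had a log2 fold change of 0.22 ± 0.153 with overlapping groups. EIF4E3, a divergent cap-binding protein and the most abundant eIF4E row by CPM and per length, had 45.2, 44.7, 42.3 and 42.7 CPM in mutant and 45.8, 51.1, 55.6 and 52.3 CPM in wildtype replicates. Each mutant pool was lower, wildtype replicate 1 came within 1 CPM of the mutants, and the log2 fold change of -0.23 ± 0.1 did not pass (edgeR adjusted p = 0.258). EIF4E2, known as a cap-binding repressor of translation, and its paralog eif4e2rs1 had log2 fold changes of -0.15 ± 0.116 and 0.12 ± 0.134. EIF4E1B, an egg and germ line form, had at most 10 counts in any pool and was not tested.

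Among the eIF4E-binding proteins no gene passed the edgeR test, and 4 of 5 had negative values. The lowest p belonged to eif4ebp3 (ENSDARG00000054916; chromosome 21, 26401332 to 26406304, minus strand), with 10.2, 11.9975, 9.45 and 12.5 CPM in mutant and 13.95, 18.5, 25.1 and 17.0 CPM in wildtype replicates. Every mutant pool lay below every wildtype pool, of which replicate 3 was the highest. The ratio of the means was 0.593, at a log2 fold change of -0.75 ± 0.179 (SE). edgeR gave an adjusted p of 0.0561 and DESeq2 one of 0.00568. The second row of this symbol, EIF4EBP3 (ENSDARG00000041607), chosen after its values were seen, had a similar log2 fold change of -0.70 but a larger SE of 0.354. Its levels were 66.3, 72.9, 106 and 154 CPM in mutant and 81.2, 118, 270 and 178 CPM in wildtype replicates, so that the pools overlapped (edgeR adjusted p = 0.326). In both rows wildtype replicate 3 was the highest of the 8 pools. EIF4EBP2, the most abundant binding protein by CPM and per length, had 340, 282, 341 and 261 CPM in mutant and 285, 287, 315 and 303 CPM in wildtype replicates, with a log2 fold change of 0.04 ± 0.125. The mTOR-controlled inhibitor eif4ebp1 had -0.14 ± 0.123, and eif4enif1, which carries eIF4E into the nucleus and to RNA granules, -0.08 ± 0.107.

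The helicase eIF4A and its helpers gave no call with edgeR, DESeq2 or limma-voom. Of these 7 rows 2, EIF4A2 and EIF4H, had an unadjusted p under 0.05 with edgeR, as had 18% of all tested genes. The main helicase gene eif4a1b had 359, 373, 415 and 434 CPM in mutant and 402, 397, 426 and 407 CPM in wildtype replicates (log2 fold change -0.04 ± 0.112, SE). EIF4A2, a closely related helicase, had 54.9, 54.0, 58.7 and 63.9 CPM in mutant and 69.4, 61.9, 79.5 and 66.4 CPM in wildtype replicates, with a log2 fold change of -0.26 ± 0.114 (edgeR adjusted p = 0.26). The pools overlapped only at mutant replicate 4 and wildtype replicate 2.

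The second eif4a1 gene, eif4a1a, chosen after its values were seen, had the largest log2 fold change of the 60 members, 0.82, and also the largest SE, 0.4. It had 98.7, 162, 194 and 195 CPM in mutant and 41.2, 58.6, 80.3 and 188 CPM in wildtype replicates. Wildtype replicate 4 lay among the mutants while the other wildtype pools lay below all of them, and edgeR's adjusted p was 0.309. Leaving out wildtype replicate 4 gave a log2 fold change of 1.42 and an edgeR adjusted p of 0.0298. That was the 1 fit of 8 with a pool left out in which eif4a1a was called. In the other 7 its log2 fold change went down to 0.57 and its adjusted p up to 0.52. With all pools, edgeR also called eif4a1a in a fit with both a replicate block and the trend on exon length removed, but with neither alone. Without wildtype replicate 4, calls over all genes were 273 higher and 200 lower, in place of 205 and 158. EIF4A3, the helicase of the exon junction complex, had 0.06 ± 0.128. The helicase cofactors EIF4B, eif4ba and EIF4H all had positive log2 fold changes, of 0.25 ± 0.12, 0.20 ± 0.105 and 0.26 ± 0.105. EIF4H had 49.6, 51.7, 50.5 and 55.4 CPM in mutant and 41.1, 47.5, 38.8 and 46.0 CPM in wildtype replicates, and EIF4B 58.1, 57.2, 62.3 and 76.1 against 55.8, 54.3, 47.8 and 55.6 CPM. Neither overlapped between the genotypes, and edgeR's adjusted p-values were 0.228 and 0.305. EIF4H lies on chromosome 15, as cox7a1 does, at a distance of 15.8 Mb. The eIF3 row EIF3K lies on it too, 27.4 Mb from cox7a1, with a log2 fold change of -0.14 ± 0.173 and overlapping groups.

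The factors that scan for the start codon, carry the initiator tRNA or recycle eIF2 gave no edgeR call. Of these 16 rows 1, EIF2A, had an unadjusted p under 0.05, as had 18% of all tested genes. EIF2A, a separate protein from eIF2 that is known for initiation by other routes, had 29.4, 26.2, 31.4 and 30.9 CPM in mutant and 24.1, 23.0, 18.4 and 20.3 CPM in wildtype replicates. All mutant pools were above all wildtype pools, with a ratio of means of 1.37 and a log2 fold change of 0.46 ± 0.119 (SE). It did not pass with edgeR (adjusted p = 0.0741), while DESeq2 called it (adjusted p = 0.0205). The true eIF2 subunits stayed close to wildtype. The alpha subunit, which the stress kinases phosphorylate, has 2 rows of the symbol EIF2S1 with log2 fold changes of 0.18 ± 0.108 (ENSDARG00000005827) and 0.20 ± 0.12 (ENSDARG00000052178). EIF2S2, the beta subunit, had 0.06 ± 0.132. EIF2S3B, the tRNA-binding gamma subunit and the most abundant of the group by CPM and per length, had 219, 203, 217 and 256 CPM in mutant and 220, 228, 232 and 225 CPM in wildtype replicates. Its log2 fold change was -0.02 ± 0.112, and mutant replicate 4 alone exceeded all wildtype pools.

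In the exchange factor eIF2B, whose 5 subunits form one complex, log2 fold changes ran from -0.18 to 0.26 and none had an unadjusted p under 0.05. DESeq2 and limma-voom called 0 of the 5. EIF2B3, the gamma subunit and the one with the smallest p, had 11.1, 13.0, 14.5 and 15.7 CPM in mutant and 9.99, 11.9, 12.5 and 11.1 CPM in wildtype replicates (0.26 ± 0.14, edgeR adjusted p = 0.358). EIF2B5, the catalytic subunit, had 29.1, 25.7, 29.5 and 35.0 CPM in mutant and 31.5, 25.04, 30.6 and 26.9 CPM in wildtype replicates. Of the subunits, 4 of 5 were negative without mutant replicate 4, with a median of -0.155 in place of 0.02. In the start codon factors of the eIF1 group, log2 fold changes of the 5 rows ran from -0.03 to 0.12. EIF1, which guards the choice of start codon, had 274, 311, 310 and 361 CPM in mutant and 254, 299, 339 and 323 CPM in wildtype replicates. Its paralog EIF1B had 19.5, 23.7, 22.8 and 26.6 against 19.6, 21.9, 21.3 and 22.8 CPM, and the genotypes overlapped in both.

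The 16 tested rows of eIF3, the scaffold on the small ribosomal subunit, gave no call with edgeR, DESeq2 or limma-voom, and none had an unadjusted p under 0.05. Their log2 fold changes lay between -0.32 and 0.19 with a median of 0.01 and SEs of 0.101 to 0.173. EIF3CL, a core subunit and the one with the most CPM before any adjustment for length, had 633, 562, 635 and 642 CPM in mutant and 579, 560, 607 and 559 CPM in wildtype replicates, with a log2 fold change of 0.10 ± 0.109. EIF3B (ENSDARG00000059654), the core subunit that anchors other subunits, had 445, 441, 487 and 482 CPM in mutant and 409, 409, 413 and 395 CPM in wildtype replicates. It was the one eIF3 row without overlap, was chosen after its values were seen, and at 0.19 ± 0.105 it did not pass (edgeR adjusted p = 0.375). The smallest p belonged to EIF3E (ENSDARG00000002549), the minor of the rows for subunit e, with 11.7, 9.87, 14.7 and 14.7 CPM in mutant and 13.9, 14.8, 19.2 and 15.8 CPM in wildtype replicates (-0.32 ± 0.161, adjusted p = 0.319). The major row of that subunit, eif3ea, also chosen after its values were seen, stood at 311, 276, 313 and 345 CPM in mutant and 273, 311, 305 and 280 CPM in wildtype replicates. A second EIF3B row (ENSDARG00000074213) had at most 16 counts in any pool and was not tested.

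Mutant replicate 4 stood apart from the other mutants in many members. It had the largest total count of the 8 pools, 69057989, and the most cox7a1 among mutants, 194 CPM against 59.5 to 113 CPM. It was the highest mutant pool in 37 of the 60 members and in 13 of the 16 eIF3 rows, but in 0 of the 5 eIF4G rows and 0 of the 6 eIF4E rows. How often it was the highest mutant pool over all tested genes was not counted. The mean of the eIF3 rows, as the log2 level of a pool minus the mean of all 8 pools, was -0.12, -0.12, -0.02 and 0.21 in mutant replicates 1 to 4. It was -0.04, 0.03, 0.09 and -0.03 in wildtype replicates. The same mutant pool had the highest share of counts in cytosolic ribosomal proteins, 5.22%, against 3.25% to 3.70% in the other mutant pools and 3.69% to 4.09% in wildtype pools. It also had the lowest level of long genes less that of short genes, -0.18 log2 units. The same value was 0.177, 0.017 and 0.159 in mutant replicates 1 to 3, and -0.0588, -0.0888, -0.0843 and 0.0544 in wildtype replicates 1 to 4. Without mutant replicate 4, 30 of the 60 log2 fold changes were positive, in place of 39, and the median of all 60 was 0.00. The median of the 5 eIF4G rows without it was 0.69, in place of 0.62. That of the 16 eIF3 rows was -0.08, in place of 0.01, with 10 rows negative in place of 7.

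**Figure D3:**
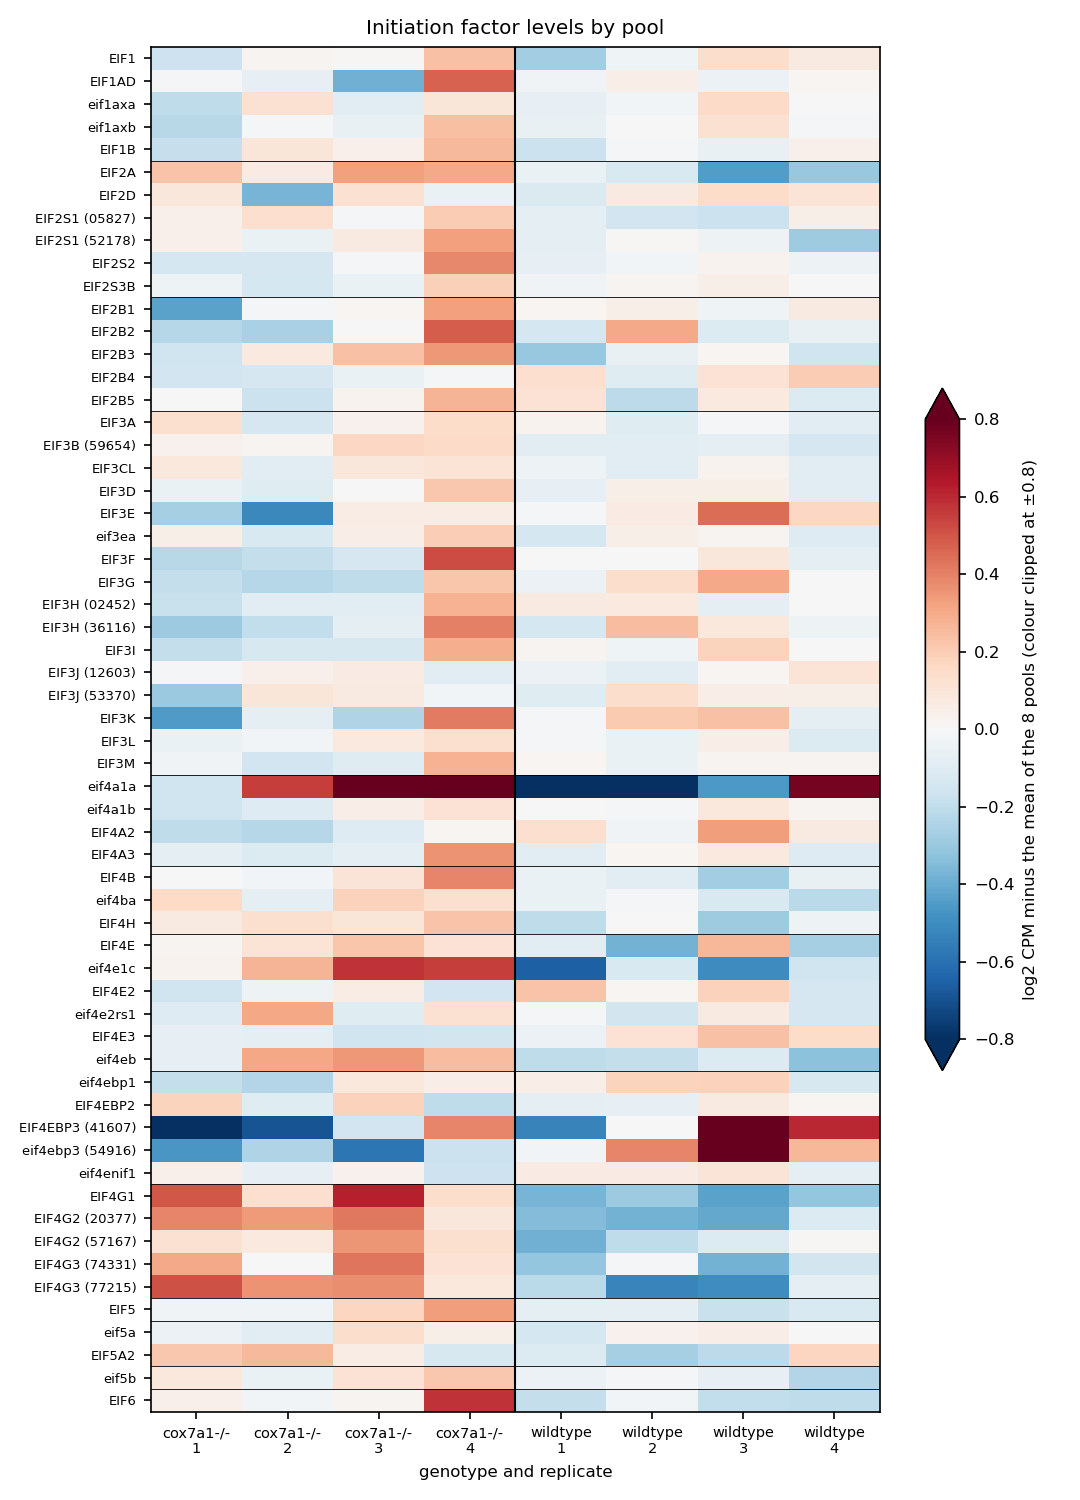
Log2 CPM of each tested initiation factor (rows, by factor complex) minus its mean over the 8 pools (columns, cox7a1-/- replicates 1 to 4 left of wildtype replicates 1 to 4); red is above and blue below the mean, and the colours stop at 0.8. The eIF4G rows are red in mutants and mostly blue in wildtype, while in the eIF3 rows red gathers in mutant replicate 4, which was the highest mutant pool in 13 of 16.

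The factors that act late, at start codon recognition and subunit joining, are grouped here with the 2 rows of eIF5A, which acts elsewhere. All 5 rows had positive log2 fold changes, from 0.03 for eif5a to 0.33 for EIF6. Of these rows EIF6 was the one with an unadjusted p under 0.05, which 18% of all tested genes had. None was called by edgeR, DESeq2 or limma-voom. EIF5, which triggers hydrolysis of GTP on eIF2, had 160.2, 160.3, 184 and 206 CPM in mutant and 156, 155, 145 and 150.4 CPM in wildtype replicates. All mutant pools were above all wildtype pools by a margin that was small for mutant replicates 1 and 2, and the difference of 0.23 ± 0.118 on the log2 scale did not pass (edgeR adjusted p = 0.331). The subunit joining factor eif5b had 88.5, 80.4, 90.5 and 97.0 CPM in mutant and 80.9, 83.0, 79.7 and 71.0 CPM in wildtype replicates (0.18 ± 0.108, adjusted p = 0.417). Its gene overlaps ARHGEF7 on the same strand, and a read that falls in exons of both would have been left out of the counts.

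EIF6, which keeps the large ribosomal subunit from joining too early and helps to build it, had 26.2, 25.03, 25.8 and 38.0 CPM in mutant and 22.3, 25.1, 22.2 and 22.1 CPM in wildtype replicates. The value of 0.33 ± 0.144 (edgeR adjusted p = 0.258) was 0.16 without mutant replicate 4. The gene eif5a, whose product carries the modified residue hypusine and helps ribosomes past difficult stretches, was the most abundant initiation factor row by CPM and per length. It had 724, 703, 824 and 771 CPM in mutant and 679, 766, 775 and 745 CPM in wildtype replicates, with a log2 fold change of 0.03 ± 0.113. Its paralog EIF5A2 had 135, 139, 121 and 107 CPM in mutant and 108, 96.8, 101 and 131 CPM in wildtype replicates (0.20 ± 0.134, adjusted p = 0.468). In both genes the pools of the genotypes overlapped.

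Set on a scale per length, as CPM per kilobase of exon averaged over all 8 pools, tested members ran from 3.40 for EIF2B4 to 325 for eif5a. Subunits of eIF3 ran from 3.48 for the minor EIF3E row to 198 for EIF3F. The eIF4G scaffolds ran from 4.25 for EIF4G3 (ENSDARG00000077215) and 13.3 for EIF4G1 to 48.0 for EIF4G2 (ENSDARG00000057167). The helicase gene eif4a1b stood at 176 and the cap-binding rows at 5.79 to 16.2, with eif4e1c at 9.87. Among the binding proteins EIF4EBP2 stood at 106, EIF4EBP3 (ENSDARG00000041607) at 98.8 and eif4ebp1 at 74.3.

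The eIF4G rows are long, with 4032 to 10190 exonic bases against a median of 2026 for the tested members and 2467 for all tested genes. Mutant replicates 1 and 3 had the highest level of long less short genes among mutants and the highest eIF4G sums, and replicate 4 the lowest of both. Among wildtype pools, replicate 4 was the highest in both. The part of library length trends in this spread within genotypes was not tested. Spearman's rho between log2 fold change and exon length was 0.354 across the 60 members and 0.109 across all tested genes, which share the libraries and are not independent replicates. Without mutant replicate 4 rho was 0.478 across the members and 0.19 across all tested genes, and with the length trend removed it was 0.201 across the members and -0.00738 across all tested genes. The 7 other members of at least 4000 exonic bases had log2 fold changes from -0.32 to 0.23 with a median of 0.09. With the trend on exon length removed from each library, the 5 eIF4G rows kept positive log2 fold changes. EIF4G1 then had 0.62 (edgeR adjusted p = 0.0163), EIF4G2 (ENSDARG00000020377) 0.59 (0.0208), EIF4G3 (ENSDARG00000077215) 0.60 (0.0222) and eif4e1c, with 1994 exonic bases, 0.74 (0.0399). In that fit 5 members were higher, the fifth being EIF2A (adjusted p = 0.0468). That is 8.33% of the members, against 2.57% of all tested genes called in either direction.

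**Figure D4:**
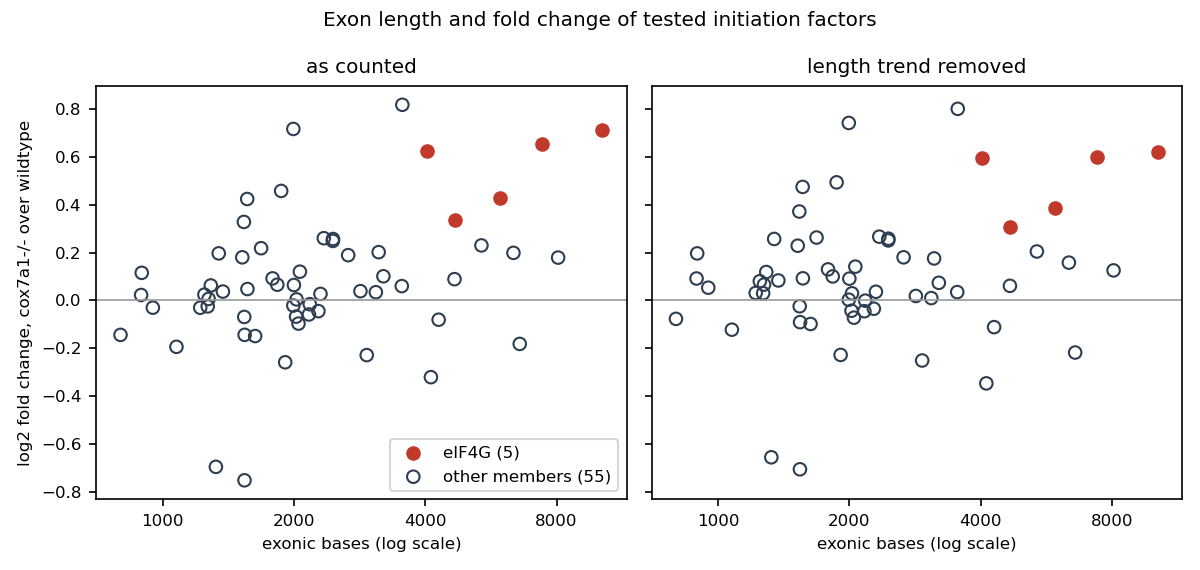
Log2 fold change, cox7a1-/- over wildtype (y axis), against exon length (x axis, log scale) for the 60 tested members, as counted (left) and with the length trend of each library removed (right). The 5 eIF4G rows (red) lie above the 7 other members of at least 4000 bases in both panels.

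Other genes of translation outside the eif names were read from lists. These lists were chosen with earlier results of these data known, so their shares are given as a description. Among 26 tested partners of initiation, 3 rose and 2 fell by edgeR. That is 19.2% of them, against 2.02% of all tested genes. At an unadjusted p under 0.05 there were 4 higher and 4 lower, or 30.8% against 18% of all tested genes. DESeq2 called 3 higher and 3 lower, and limma-voom 3 and 2, where these tools called 6.1% and 2.06% of all tested genes. ABCE1, which splits ribosomes for reuse and binds initiation complexes, had 72.2, 69.7, 82.7 and 90.5 CPM in mutant and 47.6, 45.6, 47.4 and 43.2 CPM in wildtype replicates (edgeR adjusted p = 0.0109, log2 fold change 0.78 ± 0.114). The helicase ddx3xb had 226, 221, 238 and 233 against 150, 162, 151 and 166 CPM (0.54 ± 0.104, adjusted p = 0.0265). LARP1, which binds the messages of ribosomal proteins under control of mTOR, had 60.7, 48.8, 66.9 and 58.6 against 40.2, 41.3, 36.9 and 28.5 CPM (0.68 ± 0.143, adjusted p = 0.0388). In all 3 genes the lowest mutant pool was above the highest wildtype pool.

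In 4 partners every mutant pool was below every wildtype pool, and in 4 every mutant pool was above. That is 30.8% of the list, against 11.7% of all tested genes (6.27% higher and 5.48% lower). Of the 4 lower partners, edgeR called 2. The others were PAIP1 (log2 fold change -0.42, edgeR adjusted p = 0.0796) and a MKNK2 row (ENSDARG00000015164; -0.40, 0.232). The gene pdcd4a, whose product is known to hold eIF4A away from eIF4G, had 42.5, 39.5, 44.7 and 41.3 CPM in mutant and 62.7, 51.6, 59.1 and 58.2 CPM in wildtype replicates (edgeR adjusted p = 0.0457, log2 fold change -0.46 ± 0.103). A TSC1 row (ENSDARG00000057918), for a part of the complex that restrains mTOR, had 30.1, 27.4, 29.5 and 24.9 against 37.2, 40.2, 42.5 and 36.8 CPM (-0.49 ± 0.106, adjusted p = 0.0436). The second TSC1 row (ENSDARG00000026048), the more abundant, had -0.09 and the second PDCD4 row 0.05, and neither passed. The partners' median log2 fold change was 0.04.

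Of 17 tested elongation and release factors, ETF1, the factor that reads stop codons, rose by edgeR and 0 were lower. The edgeR call is 5.88% of the list, against 2.02% of all tested genes. At an unadjusted p under 0.05 there were 5 higher and 1 lower, or 35.3% against 18% of all tested genes. DESeq2 called 2 higher and 0 lower, and limma-voom 1 and 0. ETF1 had 142, 139, 149 and 150.3 CPM in mutant and 100.2, 95.7, 95.0 and 105 CPM in wildtype replicates (edgeR adjusted p = 0.0241, log2 fold change 0.55 ± 0.101), and its gene overlaps FBXW11 on the same strand. The list's median was 0.18. None of 9 tested eIF2 kinases and phosphatase adaptors was called (median 0.09). EIF2AK3, the kinase of the endoplasmic reticulum, had 0.38 ± 0.158 (edgeR adjusted p = 0.229) and NCK1 (ENSDARG00000074262) -0.38 ± 0.122 (0.136), and these were the 2 with an unadjusted p under 0.05, while DESeq2 and limma-voom called 0. None of 9 tested mitochondrial translation factors was called by edgeR or limma-voom (median -0.01), and DESeq2 called 1. Here 2 had an unadjusted p under 0.05, which is 22.2%, as among the eIF2 kinases and adaptors, against 18% of all tested genes. These 2 were GFM1 (0.50 ± 0.149, adjusted p = 0.11) and TSFM (0.47 ± 0.158, 0.148), both elongation factors of mitochondria. Of 76 tested rows named as cytosolic ribosomal proteins none was called by edgeR, DESeq2 or limma-voom (median 0.04). The 1 with an unadjusted p under 0.05 was rps19bp1, a ribosomal protein's binding partner that the name rule takes in (-0.51 ± 0.166, adjusted p = 0.139), and the next by p, RPL3, had 0.25. Summed, the 77 rows so named had 31021, 35554, 34378 and 58191 CPM in mutant and 37300, 40406, 38588 and 37351 CPM in wildtype replicates. Mutant replicates 1 to 3 lay below all wildtype pools and replicate 4 above them, so the median near 0 joins pools on both sides of wildtype.

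**Figure D5:**
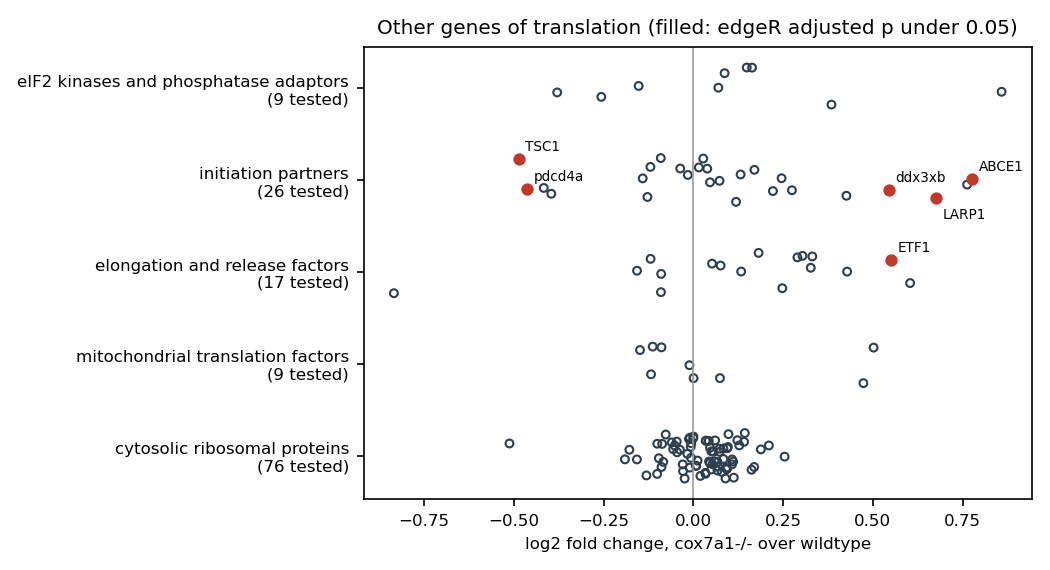
Log2 fold change, cox7a1-/- over wildtype (x axis), of each tested gene in 5 lists of other translation genes (y axis; vertical scatter within a list has no meaning); filled, named points passed edgeR's adjusted p of 0.05. ABCE1, LARP1, ddx3xb and ETF1 lie between 0.54 and 0.78, TSC1 and pdcd4a at -0.49 and -0.46, and the 76 ribosomal protein rows cluster near 0. The summed level of the ribosomal protein rows was below all wildtype pools in mutant replicates 1 to 3 and above them in mutant replicate 4.

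The calls rest on small margins. Scaled by library totals alone, 0 members were called, with edgeR adjusted p-values of 0.056 for EIF4G1, 0.0765 for EIF4G2 (ENSDARG00000020377), 0.117 for EIF4G3 (ENSDARG00000077215) and 0.0554 for eif4e1c, and over all genes 60 were higher and 97 lower in place of 205 and 158. With 1 pool left out, the members called higher numbered 0, 1, 0 and 3 without mutant replicates 1 to 4, and 0, 0, 0 and 5 without wildtype replicates 1 to 4. Calls over all tested genes moved too, from 2.02% with all pools to 0.602%, 0.936%, 0.371% and 2.07% without mutant replicates 1 to 4. Without wildtype replicates 1 to 4 these shares were 0.745%, 0.53%, 0.377% and 2.59%. EIF4G1 lost its call without mutant replicate 1 (adjusted p = 0.075) or 3 (0.0807) and without wildtype replicate 1 (0.0672), 2 (0.0728) or 3 (0.0916). The calls of EIF4G2 and EIF4G3 were lost in the same 5 cases and without mutant replicate 2, with adjusted p-values up to 0.1 and 0.115, and that of eif4e1c was kept without wildtype replicate 4 alone (0.0497). In these 8 fits the log2 fold change of EIF4G1 lay between 0.62 and 0.78, of EIF4G2 between 0.59 and 0.69, of EIF4G3 between 0.58 and 0.73 and of eif4e1c between 0.62 and 0.81. Among the partners ABCE1 kept its call in all 8 fits (adjusted p up to 0.0444), while pdcd4a lost it in all 8 (0.0583 to 0.127). TSC1 kept it without wildtype replicate 4 alone (0.0427) and LARP1 without mutant replicate 2 alone (0.0424). For ddx3xb and ETF1 it was kept without mutant replicate 4 (0.0272 and 0.0265) or wildtype replicate 4 (0.0381 and 0.0334) and lost in the other 6 fits. With library totals ABCE1 kept its call (0.0148), while ddx3xb (0.0535), LARP1 (0.0678), pdcd4a (0.0863), TSC1 (0.0864) and ETF1 (0.0581) did not.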

How the data were processed

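Each pool has 1 column of whole-number read counts per gene row, deposited by the authors without normalization. Per the file headers, featureCounts (version 2.0.3) was run on exons of the Ensembl 109 gene models for GRCz11, in reverse-stranded mode (setting 2), with no option that keeps multi-mapping reads or reads in overlapping genes. The submitters' processing notes also list the tools STAR, fastp, FastQC and MultiQC, with versions not given in the sources used here. Exon length per gene, in bases, is a further column deposited by the authors. Of the per-sample columns 0 went unused. Symbols came from a table of gene IDs that names 29201 of 32520 rows.

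Genes were filtered with filterByExpr (minimum count 10), leaving 17949, and scaled with TMM. The test between genotypes was the quasi-likelihood F test of edgeR 4.0.16 in R 4.3.3, without covariates, with limma 3.58.1 and DESeq2 1.42.0 as alternatives, and with Benjamini-Hochberg adjustment over all tested genes and a threshold of 0.05. The p-values measure the spread between pools. The SE is the size of the log2 fold change divided by the square root of F. Tested members had 334 to 47761 counts per pool.

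Pool values are given for members past the threshold, for the member with the smallest p and that with the highest CPM in each factor group, and for rows sharing a called symbol. Members and lists were chosen with earlier results of these data known. Alternatives were other scaling, filters, tests, a replicate block, a length offset (lowess span 0.3) and each pool left out. The length offset without mutant replicate 4 was added after seeing the data. Promoter and protein sequences were not used here.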

Additional observations from a re-analysis of the deposited data

Results flagged for a closer look

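For the 40 genes given by pool, initiation factors and others, the 4 pools of each genotype were checked for a pool that stood far from the other pools of that genotype, as its gap to the nearest pool over the range of the 4 on the log2 scale. Chance marks about 1 group in 20, and 3 of 80 groups were marked. EIF3CL, a core eIF3 subunit, was low in mutant replicate 2, at 562 CPM against 633 to 642 CPM in the other mutants (gap share 0.896). EIF6 was high in mutant replicate 4, at 38.0 CPM against 25.03 to 26.2 CPM in the other mutants (0.888). EIF6 was also high in wildtype replicate 2, at 25.1 CPM against 22.1 to 22.3 CPM in the other wildtype pools (0.938).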

How the results depend on the processing

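The count of 4 members higher was the same with DESeq2's size factors, with mitochondrial and haemoglobin genes left out, with no filter or a CPM filter and with limma-voom. Higher members numbered 0 with library totals, 7 with DESeq2, 6 at an adjusted p of 0.1, 5 with the length offset, 3 with that offset and without mutant replicate 4, and 0 to 5 with 1 pool left out. The number lower was 1 with no filter, a CPM filter, DESeq2 and an adjusted p of 0.1, and 0 to 1 with 1 pool left out (1 without wildtype replicate 1), and the gene was eif4ebp3 in these fits. Over all genes 363 were called, against 157 with library totals, 1095 with DESeq2, 892 at an adjusted p of 0.1, and 68 to 473 with 1 pool left out. The length offset called 2.57% of all tested genes, and 1.89% without mutant replicate 4. The 5 eIF4G rows and eif4e1c kept a positive log2 fold change in every alternative run.

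Replicate numbers are shared between the genotypes, but the labels do not say that they pair pools, and same-numbered pools had correlations of 0.246, -0.071, 0.0365 and -0.066 in their deviations. With the replicate block, 0 members were higher, 0 were lower and 210 genes were called, at adjusted p-values of 0.0593 for EIF4G1 and 0.0522 for eif4e1c. Of the other called genes of translation, ABCE1 kept its call with the block (0.0326) and ddx3xb, LARP1, pdcd4a, TSC1 and ETF1 did not (0.0594 to 0.0837). With the block and the length offset together 5 members were higher, the 4 of the main fit and eif4a1a. That is 8.33% of the members, against 1.96% of all tested genes called in either direction.

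Values near 0 changed sign. With library totals 7 members turned from positive to negative, eif5a among them at -0.0065, and none turned the other way. With 1 pool left out the log2 fold change lay between -0.039 and 0.106 for EIF1, -0.087 and 0.029 for EIF2S3B, -0.0202 and 0.133 for EIF2B5, -0.026 and 0.108 for EIF4EBP2, and -0.022 and 0.062 for eif5a. The cause of these moves was not tested. With 4 pools a genotype, the SEs of 0.1 to 0.4 limit which differences could pass.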

Other observations

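Some initiation partners and elongation or release factors, chosen after their values were seen, had groups without overlap but did not pass with edgeR. Groups did not overlap in 30.8% of the partners and 23.5% of the elongation and release factors, against 11.7% of all tested genes. Others in that state include GSPT1 (ENSDARG00000098627, higher) and EEF1A1 (ENSDARG00000069951, lower). This EEF1A1 row had low levels, with means of 0.51 CPM in mutants and 0.91 CPM in wildtype. PAIP1, which links the poly(A)-binding protein to the initiation machinery, had a mean of 25.9 CPM in mutants and 34.6 CPM in wildtype (log2 fold change -0.42 ± 0.112, adjusted p = 0.0796). DHX29, a helicase that helps the small subunit through structured leaders, had means of 17.6 CPM in mutants and 13.1 CPM in wildtype (0.43 ± 0.125, adjusted p = 0.107), and the elongation gene eef2a.1 had 16.3 CPM in mutants and 10.7 CPM in wildtype (0.60 ± 0.157, adjusted p = 0.0741).

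The rows of MKNK2, a kinase that phosphorylates eIF4E, had values of opposite sign. The row ENSDARG00000015164 had 228, 226, 183 and 171 CPM in mutant and 250.5, 229.8, 349.8 and 232 CPM in wildtype replicates (-0.40 ± 0.164, edgeR adjusted p = 0.232). The row ENSDARG00000011373 had 20.8, 34.5, 51.7 and 35.1 CPM in mutant and 10.2, 12.5, 23.3 and 37.7 CPM in wildtype replicates (0.76 ± 0.379, adjusted p = 0.316). Wildtype replicates 3 and 4 lay among the mutants in ENSDARG00000011373, and the difference between the rows was not tested.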
